A study of Homo sapiens with 6 samples.

Results

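The Eph receptors and their ephrin ligands were followed in HT29 cells, an established line from a human colorectal cancer, with and without stable knockdown of HMGA1. 10 genes were described, chosen by name from the 31164 genes of the deposited expression table: the receptors EPHA1, EPHA2, EPHA4, EPHB2, EPHB3 and EPHB4 and the ligands EFNA1, EFNA4, EFNB1 and EFNB2. They were chosen with the levels of both groups in view, so the difference between the groups is a description for them: no p-value is given for any of the 10, and the count of them past the threshold stands only beside the share of all genes. The group shHMGA1 had 3 libraries from cells labelled as an HMGA1 knockdown; HMGA1 is an architectural protein of chromatin with a preference for AT-rich sequence. The controls, shNC, had 3 libraries from HT29 cells labelled wild type, with shNC in their titles, and neither group received a further treatment. The labels do not say how many hairpins were used, whether each line was a pool or a clone, or whether replicates were separate cultures, so the spread between libraries may be technical.

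Eph receptors form the largest family of receptor tyrosine kinases. They bind ephrins on neighbouring cells, A-type ephrins held by a lipid anchor and B-type ephrins by a transmembrane segment. Contact signals in both directions: forward into the receptor-bearing cell, where the cytoskeleton responds, and in reverse into the ephrin-bearing cell. In the intestinal crypt, EPHB2 and EPHB3 are known targets of Wnt signalling through beta-catenin and TCF, and their contact with B-type ephrins keeps cells sorted along the crypt. EPHA2 is common in carcinomas, with EFNA1 as its best-known ligand.

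Levels are FPKM, in which fragments are divided by transcript length and by the mapped total, so that genes of different length can be set side by side. Library totals ran from 807156 to 838067 FPKM. Per library, 6807 to 7116 genes were listed at 0 in shHMGA1 and 5747 to 6542 in shNC, without overlap. The part of this in the differences between the groups was not tested. HMGA1 was at 513 ± 50.1 FPKM in shHMGA1 against 816 ± 35.1 in shNC (SD, n = 3 each), which is 62.8% of control (log2 difference -0.67, SE 0.08, limma adjusted p = 0.0018, and p = 0.1 in an exact two-sided permutation test, the smallest that 3 against 3 allows). Of 11 markers of colon epithelium, 7 averaged at least 1 FPKM, among them EPCAM and KRT8, while VIL1, CDX1, CDH17 and GPA33 averaged under 0.1. The name HT29 is taken from the labels, and with these markers near 0 the identity of the line was not tested further. The summed levels of the marker lists were 3128 to 3321 FPKM in shHMGA1 against 3478 to 3827 in shNC for colon epithelium, 18.2 to 20.1 against 22.4 to 24.0 for 7 fibroblast genes (COL1A1 and ACTA2 the 2 above 1 FPKM, and COL3A1 going the other way at 0.81 to 0.95 in shHMGA1 against 0.17 to 0.18 in shNC), 1.82 to 2.54 against 2.04 to 2.27 for 6 immune genes and 0.17 to 0.23 against 0.28 to 0.35 for 3 endothelial genes. The leukocyte marker PTPRC did not exceed 0.01 FPKM in any library. Within the epithelial list EPCAM rose (log2 difference 0.35) and KRT18 (-0.25) and KRT19 (-0.28) fell, and the part of any marker in the results on Eph genes was not tested. In bulk RNA, fewer cells that carry a transcript and less of it per cell cannot be told apart.

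In the HMGA1 knockdown EPHA2 was at 43.7% of its control level, EFNB1, EFNB2, EPHB3, EPHA1 and EPHA4 were between 69.8% and 81.0% of theirs, EPHB2 and EFNA1 were within 2 percentage points of theirs, and EPHB4 and EFNA4 were at 118% and 122%. In the fit over the 14304 genes averaging 1 FPKM or more, which all 10 genes reached, 28.4% of genes were called at an adjusted p under 0.05, 16.1% higher and 12.3% lower in shHMGA1. Of the 10 genes, 5 were past that threshold, 2 higher and 3 lower. The libraries of the groups did not overlap for 6 of the 10, lower in 4 and higher in 2, where 45.9% of all genes tested did not overlap, 20.5% lower and 25.4% higher. Since the genes were chosen on this contrast, nothing is read from these counts. The 5 were 1 without shHMGA1 replicate 3 or without shNC replicate 1, and 2 without shNC replicate 2 or without shNC replicate 3.

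**Figure D1:**
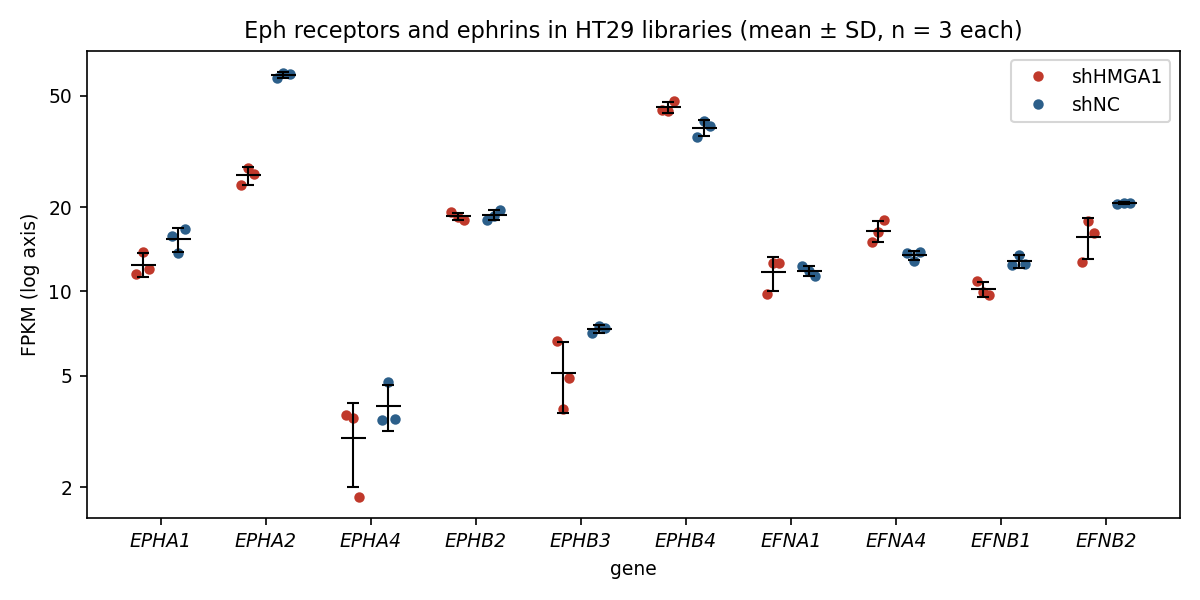
FPKM of the 10 genes on a log axis, with shHMGA1 (red) left of shNC (blue). Points are libraries and bars the mean ± SD (n = 3 each). The shHMGA1 points of EPHA2, between 23.9 and 27.7 FPKM, lie far below its shNC points, between 57.7 and 60.4.

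Among the A-type receptors, EPHA2 had 23.91, 27.65 and 26.27 FPKM in shHMGA1 replicates 1 to 3, against 57.68, 60.36 and 59.94 FPKM in shNC replicates 1 to 3. Every knockdown library was at less than 28 FPKM and every control library above 57, with no overlap. The log2 difference was -1.16 (SE 0.06), on the log2(FPKM + 1) scale used for all differences here, which understates those of low genes. It was the 113th lowest of the 14304 genes, and it stayed between -1.21 and -1.11 when any 1 library was left out. The authors' deposited table put EPHA2 at group levels of 2472 in shHMGA1 and 5684 in shNC, on a scale that its headers do not name, and at a log2 fold change of -1.20.

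EPHA1, an A-type receptor of epithelia, had 11.58, 13.85 and 12 FPKM in shHMGA1 against 15.81, 13.72 and 16.66 FPKM in shNC. The groups overlapped, since shHMGA1 replicate 2 lay above shNC replicate 2 (log2 difference -0.28, SE 0.09). EPHA4, which binds ephrins of both types, was the lowest of the 10 genes, with 3.62, 3.53 and 1.85 FPKM in shHMGA1 against 3.47, 4.74 and 3.49 FPKM in shNC. Its difference of -0.32 (SE 0.21) rested on shHMGA1 replicate 3, and was -0.09 without that library and -0.20 without shNC replicate 2.

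The B-type receptors differed among themselves. EPHB4, whose chief ligand is EFNB2, had 44.40, 43.99 and 47.95 FPKM in shHMGA1 against 35.64, 40.75 and 38.93 FPKM in shNC. All knockdown libraries were above all control libraries (log2 difference 0.24, SE 0.07). EPHB2 had 19.14, 18.46 and 18.00 FPKM in shHMGA1 against 17.96, 18.64 and 19.56 FPKM in shNC. The 2 ranges covered each other almost wholly, and the difference of -0.01 (SE 0.06) ran from -0.04 to 0.02 with any 1 library left out. EPHB3 had 6.67, 3.81 and 4.90 FPKM in shHMGA1 against 7.09, 7.54 and 7.41 FPKM in shNC. Its groups did not overlap, but shHMGA1 replicate 1 came within 0.5 FPKM of the controls (log2 difference -0.47, SE 0.16, and -0.31 without shHMGA1 replicate 2). The level of EPHB2 was 2.87 to 4.85 times that of EPHB3 in shHMGA1 and 2.47 to 2.64 times in shNC.

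Of the ligands, EFNA1 had 9.82, 12.59 and 12.66 FPKM in shHMGA1 against 12.29, 11.86 and 11.34 FPKM in shNC. 2 of its knockdown libraries lay above all controls and shHMGA1 replicate 1 below them (log2 difference -0.02, SE 0.10, and 0.09 without that library). EFNA4, a second A-type ligand, had 15.07, 16.27 and 17.96 FPKM in shHMGA1 against 13.73, 12.85 and 13.78 FPKM in shNC, with no overlap (log2 difference 0.27, SE 0.07, the highest of the 10 genes).

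Both B-type ligands were lower in the knockdown. EFNB1, the B-type ephrin encoded on the X chromosome, had 10.86, 9.93 and 9.72 FPKM in shHMGA1 against 12.40, 13.54 and 12.48 FPKM in shNC, without overlap (log2 difference -0.31, SE 0.07). EFNB2 had 12.77, 17.89 and 16.23 FPKM in shHMGA1 against 20.44, 20.77 and 20.66 FPKM in shNC. The control libraries lay within 0.4 FPKM of each other, while those of the knockdown spread over 5 FPKM (log2 difference -0.39, SE 0.11, and -0.26 without shHMGA1 replicate 1).

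The order of the levels changed at the top. In shHMGA1 EPHB4 came first at 45.4 ± 2.18 FPKM and EPHA2 second at 25.9 ± 1.89, against EPHA2 first at 59.3 ± 1.44 and EPHB4 second at 38.4 ± 2.59 in shNC (SD, n = 3 each). EPHB2 held the third place in shHMGA1, at 18.5 ± 0.574, and the fourth in shNC, at 18.7 ± 0.803. EFNA4, EFNB2, EPHA1, EFNA1 and EFNB1 followed in shHMGA1 with ranges that overlapped from each to the next. In shNC the overlapping neighbours were EPHA1 with EFNA4 and EFNA4 with EFNB1. EPHB3 and EPHA4 were last in both groups.

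Summed over the 6 receptors, the level was 110.5 ± 1.06 FPKM in shHMGA1 against 143 ± 4.75 in shNC. The A-type receptors summed to 41.4 ± 3.17 FPKM in shHMGA1 and 78.6 ± 1.57 in shNC, and the B-type receptors to 69.1 ± 2.49 and 64.5 ± 3.35. EPHA2 made up 21.9% to 24.8% of the receptor sum in shHMGA1 and 41.1% to 41.9% in shNC, and EPHB4 39.5% to 43.2% and 25.9% to 28.0%. By receptor and ligand pair, EPHA2 was at 2.08 to 2.43 times the level of EFNA1 in shHMGA1 and 4.69 to 5.29 times in shNC, while EPHB4 was at 2.46 to 3.48 times the level of EFNB2 in shHMGA1 and 1.74 to 1.96 times in shNC. These sums and ratios are of RNA and describe the chosen genes.

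**Figure D2:**
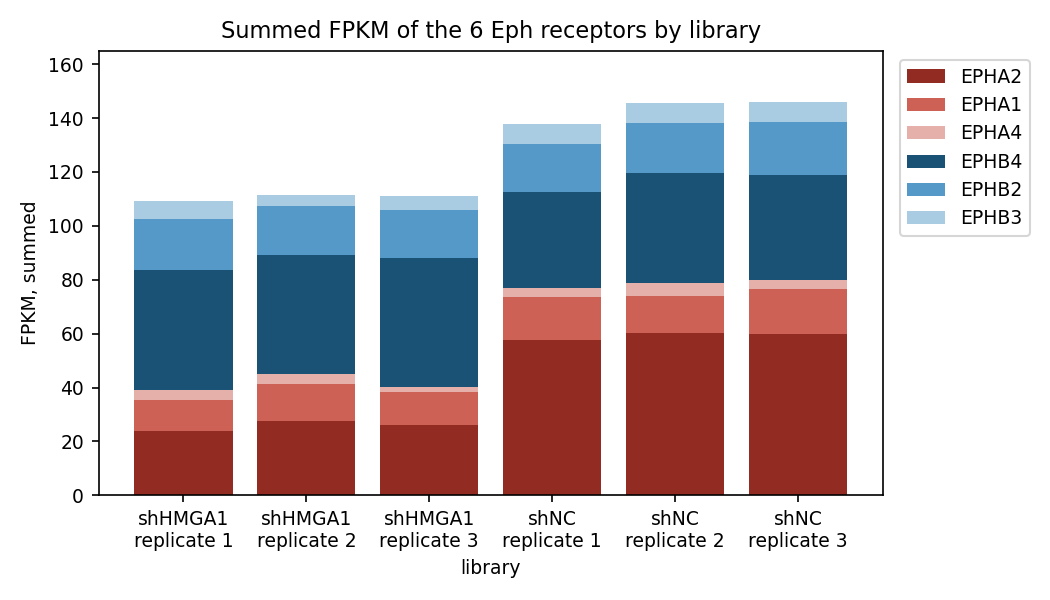
Summed FPKM of the 6 receptors in each library, A-type in red and B-type in blue, with shHMGA1 left of shNC. The sum is 109 to 111 FPKM in shHMGA1 and 138 to 146 in shNC, and the EPHA2 segment is 21.9% to 24.8% against 41.1% to 41.9% of it.

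The upstream sequence is shown for EPHA2, EPHB4 and EPHB2, as the receptors that were lower, higher and level in the knockdown, because HMGA1 binds short runs of A and T. Bases are from RefSeq (GRCh38.p14), on the strand of the gene, up to the start of transcription and leaving out any base in an exon of the same gene in GENCODE 29; capitals mark runs of at least 5 bases that are all A or T.
EPHA2 (chr1:16156088-16156319, minus strand): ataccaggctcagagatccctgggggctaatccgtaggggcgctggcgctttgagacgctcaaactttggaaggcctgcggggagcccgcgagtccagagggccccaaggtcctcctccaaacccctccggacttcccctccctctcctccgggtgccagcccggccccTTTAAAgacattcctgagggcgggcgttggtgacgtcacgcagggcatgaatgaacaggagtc
EPHB4 (chr7:100827524-100827773, minus strand): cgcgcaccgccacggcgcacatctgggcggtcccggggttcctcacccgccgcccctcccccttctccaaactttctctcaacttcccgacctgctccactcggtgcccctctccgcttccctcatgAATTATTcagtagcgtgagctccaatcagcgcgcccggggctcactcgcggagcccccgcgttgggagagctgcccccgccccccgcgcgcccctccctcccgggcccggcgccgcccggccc
EPHB2 (chr1:22710589-22710838, plus strand): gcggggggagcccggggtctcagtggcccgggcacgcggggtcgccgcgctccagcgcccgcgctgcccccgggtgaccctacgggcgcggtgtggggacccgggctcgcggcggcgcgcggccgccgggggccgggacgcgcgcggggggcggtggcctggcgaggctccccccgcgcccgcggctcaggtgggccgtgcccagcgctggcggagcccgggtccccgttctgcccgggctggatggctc
A and T made up 36.8% of the 250 bases before the start of EPHA2, 27.2% before EPHB4 and 15.2% before EPHB2, where the median over 27305 promoters was 42%. The share was 41.6% for EFNA4, which was higher in the knockdown, and 21.6% for EFNB2 and 36.4% for EFNB1, which were lower. It was 56.8% for EPHA4 at its first start listed and 22% at its second, 40.8% for EPHA1, 30% for EPHB3 and 26.8% for EFNA1. The start listed for EFNA1 lies inside the gene as annotated. Its window therefore holds bases of the gene itself, and the counts over the 10 windows below include it. A link between these shares and the differences was not tested. EPHA2 and EPHB4 had 1 run of at least 5 A or T each in the bases shown and EPHB2 had 0. Runs of this kind were in 7 of the 10 genes' 250-base windows and in 74.6% of all promoters, taking the first start listed for each gene. The letters CTTTGAT or CTTTGAA, which TCF factors bind, were on either strand of 6.03% of all promoters, TGANTCA, bound by AP-1, on 6.60%, and ACGTG, the core bound by hypoxia-inducible factors, on 18.7%. None of the 3 was in the window of any of the 10 genes at that start; a second start listed for EPHA4 had ACGTG once. These are matches of letters in short windows and say nothing of binding.

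The 10 genes lie on 6 chromosomes (GENCODE 29, GRCh38). EPHA2 (chromosome 1, 16124337 to 16156087) and EPHB2 (chromosome 1, 22710839 to 22921500) share a chromosome with EFNA4 (155063731 to 155069553) and EFNA1 (155127460 to 155134857). EPHA1 (143390289 to 143408892) and EPHB4 (100802565 to 100827521) are on chromosome 7, EPHA4 (221418027 to 221574202) on chromosome 2, EPHB3 (184561784 to 184582409) on chromosome 3, EFNB2 (106489731 to 106535662) on chromosome 13 and EFNB1 (68828997 to 68842147) on the X chromosome. EFNA3, between EFNA4 and EFNA1, is a relative outside the 10. In this ephrin cluster the log2 differences were 0.27 for EFNA4, -0.20 for EFNA3 and -0.02 for EFNA1.

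Some exons overlap other genes, with the strand setting of the authors' counting not given in the sources used here. EPHA1 overlaps ZYX (55.0 ± 4.23 FPKM in shHMGA1 and 59.4 ± 0.693 in shNC), EPHB4 overlaps SLC12A9 (11.6 ± 0.684 and 11.9 ± 1.29), and EFNA4 overlaps AL691442.1 on its own strand (0.697 ± 0.31 and 1.41 ± 0.372). None of these 3 was called (limma adjusted p = 0.213, 0.838 and 0.0808), and the counting may have been unable to assign shared reads within such a pair. EPHA4 and EFNB2 overlap antisense genes that averaged under 1 FPKM, and EPHB2 overlaps a microRNA gene.

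The nearest tested genes on either side that do not overlap the gene itself, a rule added after the values were seen, gave 19 genes besides the 10. Of these, 4 were higher, 3 were lower and 12 were not called, with a median log2 difference of -0.04, where the median over all genes tested was 0.02. The shares called over all genes tested were 16.1% higher and 12.3% lower. Beside EPHA2, ARHGEF19, a guanine nucleotide exchange factor, rose to 29.7 ± 1.03 FPKM in shHMGA1, against 23.7 ± 0.192 in shNC (limma adjusted p = 0.00519), and FAM131C was at 8.38 ± 0.633 and 8.63 ± 0.692 (adjusted p = 0.764). Both neighbours of EPHB4 under this rule rose: TRIP6, a focal adhesion protein, had 50.8 ± 1.82 FPKM in shHMGA1 and 37.8 ± 1.54 in shNC (log2 difference 0.42), and POP7, an RNase P subunit, 68.9 ± 4.34 and 55.6 ± 3.0 (0.30). SLC12A9, which overlaps EPHB4 and so was left out by the rule, was not called (log2 difference -0.03, limma adjusted p = 0.838). CHRD, a BMP antagonist beside EPHB3, fell to 3.67 ± 0.396 FPKM in shHMGA1, against 6.58 ± 0.416 in shNC (limma adjusted p = 0.00294). Also called were KDM1A beside EPHB2 (log2 difference 0.33), PJA1 beside EFNB1 (-0.40) and LINC00460 beside EFNB2 (-0.63). Gaps to the neighbours ran from 487 bases (SLC50A1 and EFNA1) to 1680090 bases (AC009502.1 and EPHA4), and CHRD lay 171048 bases from EPHB3.

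Of the 12 other genes of the family, 10 were in the table and 4 had at least 1 FPKM on average. EPHB6, a receptor without kinase activity, fell: it had 7.35, 8.26 and 8.47 FPKM in shHMGA1 against 10.39, 9.80 and 10.93 FPKM in shNC, with no overlap (log2 difference -0.33, SE 0.08, limma adjusted p = 0.0176). That call was lost without shNC replicate 1 or 3, with adjusted p from 0.0127 to 0.068 over 17 alternatives. The other 3 did not pass: EFNA3 was at 18.75 ± 1.08 FPKM in shHMGA1 and 21.7 ± 2.05 in shNC (limma adjusted p = 0.108), EFNA2 at 7.37 ± 0.34 and 7.12 ± 0.28 (adjusted p = 0.649), and EPHA10, also without kinase activity, at 4.35 ± 0.837 and 3.43 ± 0.275 (adjusted p = 0.156). EFNA5 was not tested, at 0.13, 0.12 and 0.09 FPKM in shHMGA1 against 0.41, 0.27 and 0.48 FPKM in shNC. EPHB1, EPHA8, EFNB3, EPHA7 and EPHA3 averaged at most 0.183 FPKM in either group. EPHA5 and EPHA6 were not found under those names and have no values here.

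**Figure D3:**
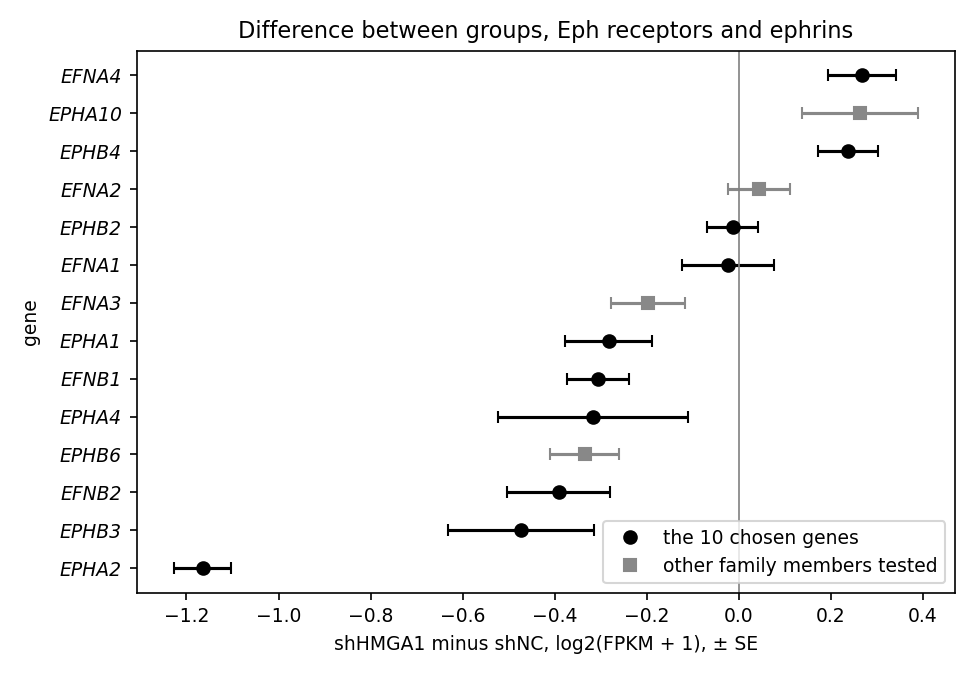
Difference between shHMGA1 and shNC on the log2(FPKM + 1) scale, ± SE, for the 10 chosen genes (black circles) and the 4 other tested family members (grey squares). EPHA2 stands alone at -1.16, and the other 13 lie between -0.47 and 0.27.

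Genes that carry or regulate Eph signals were taken from lists drawn up from pathway knowledge, with earlier results of these data known. For every list below, the reference is all genes tested, of which 12.3% were called lower and 16.1% higher, with a median log2 difference of 0.02. Among 38 tested effectors of forward signalling, 8 fell and 2 rose, or 21.1% and 5.26%, with a median log2 difference of -0.06. NGEF (ephexin), a guanine nucleotide exchange factor that Eph receptors activate, fell to 10.3 ± 0.782 FPKM in shHMGA1, against 19.9 ± 1.82 in shNC (log2 difference -0.89, limma adjusted p = 0.00119). TIAM1, an exchange factor for Rac that binds Eph receptors and ephrins, fell to 19.3 ± 0.864 FPKM, against 31.4 ± 2.18 in shNC (-0.68, adjusted p = 0.00133). The kinase ROCK2 (-0.47) and the PI3-kinase subunit PIK3R1 (-0.45) fell too. The 2 that rose, named after their values were seen, were the kinases SRC (0.43) and LIMK2 (0.42). The 8 were 5 without shHMGA1 replicate 3, 2 without shNC replicate 1 and 3 without shNC replicate 2; ROCK2 was not called without any of these (adjusted p up to 0.0675 over 17 alternatives), nor PIK3R1 without shNC replicate 1 (up to 0.056). The 2 were 1, 0 and 1 without the same libraries.

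Among 13 tested partners of ephrins in reverse signalling, 4 fell and 3 rose, or 30.8% and 23.1% (median -0.10). CXCR4, a chemokine receptor whose signal ephrin-B dampens in mouse neurons, fell to 0.58 ± 0.0625 FPKM in shHMGA1, against 1.96 ± 0.301 in shNC (log2 difference -0.90, limma adjusted p = 0.00366). RGS3, which carries that effect by binding the tail of ephrin-B, rose to 14.6 ± 1.24 FPKM, against 10.7 ± 0.259 in shNC (0.41, adjusted p = 0.00765). CXCR4 averaged 1.27 FPKM over all libraries and reached the filter of 1 FPKM only through shNC. Its difference ran from -1.59 to -0.32 over 16 alternatives, so its call and its place among the 4 carry that limit. STAT3, a transcription factor (-0.46), fell, and PICK1, a PDZ protein that binds ephrin-B (0.47), rose. The others, named after their values were seen, were the PDZ adaptor SDCBP (-0.40), the tight junction protein CLDN4 (-0.40) and the polarity protein PARD6B (0.31).

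Among 17 tested genes of shedding and turnover, 5 fell and 2 rose, or 29.4% and 11.8% (median -0.08). MMP14, a membrane protease that cleaves EPHA2, fell to 8.93 ± 1.33 FPKM in shHMGA1, against 18.6 ± 0.292 in shNC (log2 difference -0.99, limma adjusted p = 0.00138). ADAM10, which sheds ephrins, fell to 54.9 ± 6.85 FPKM, against 74.9 ± 7.45 in shNC (-0.44, adjusted p = 0.0199). The ubiquitin ligase CBL (-0.50) and the receptor phosphatase PTPRJ (-0.42) fell, as did, named after its value was seen, the phosphatase PTPN1 (-0.16). The 2 that rose, named in the same way, were APH1A (0.18), of gamma-secretase, and the phosphatase PTPN2 (0.18). The 5 were 1 on leaving out replicate 3 of shHMGA1 or replicate 1 or 2 of shNC, and 2 without shHMGA1 replicate 2; ADAM10 and CBL were not called without any of these 4 libraries, nor PTPRJ without the first 3 (adjusted p up to 0.0747, 0.066 and 0.0779 over 17 alternatives). The 2 were 0 without any library but shNC replicate 3, and 1 without that, and they were 1 when rescaled to the same total and 0 under the other 3 scalings, without a filter, without the trend in the variance or with the replicate number as a block.

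Of 7 tested transcription factors known to act on EPHB genes, 1 fell and 1 rose, or 14.3% each (median -0.13). CTNNB1, beta-catenin, fell to 174 ± 14.1 FPKM in shHMGA1, against 210 ± 9.46 in shNC (log2 difference -0.27, limma adjusted p = 0.024). TCF7L2, its DNA-binding partner in the colon, rose to 70.1 ± 3.09 FPKM, against 61.1 ± 0.494 in shNC (0.19, adjusted p = 0.0245). Neither call was firm. CTNNB1 was not called without shHMGA1 replicate 1 or 3 or shNC replicate 2 or 3, and TCF7L2 not without shHMGA1 replicate 3 or any shNC library (adjusted p up to 0.0865 and 0.083 over 17 alternatives). Without shHMGA1 replicate 1 the count of factors that fell was 2, neither of them CTNNB1.

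For other receptor tyrosine kinases, 6 of 24 tested fell and 1 rose, or 25% and 4.17% (median -0.14). EGFR, the receptor for epidermal growth factor, fell to 13.2 ± 1.72 FPKM in shHMGA1, against 20.6 ± 0.667 in shNC (log2 difference -0.61, limma adjusted p = 0.00411). RET (-0.59), the insulin-like growth factor receptor IGF1R (-0.48) and the hepatocyte growth factor receptor MET (-0.35) fell with it, and ERBB3 (0.29, named after its value was seen) rose. The 1 that rose was 0 without shHMGA1 replicate 3 or any shNC library. Among 30 tested genes of the other guidance systems, semaphorins, plexins, neuropilins, netrins and slits, 12 fell and 5 rose, or 40% and 16.7% (median -0.19). The secreted semaphorin SEMA3C fell to 5.15 ± 0.821 FPKM in shHMGA1, against 14.4 ± 0.938 in shNC (-1.33, limma adjusted p = 0.000838), and SEMA3A rose to 43.8 ± 5.84, against 22.1 ± 1.53 in shNC (0.95, adjusted p = 0.00156). The netrin receptor UNC5B (-0.69) and the co-receptor NRP1 (-0.58) fell, NRP1 not without shNC replicate 2 (adjusted p up to 0.0588 over 16 alternatives). NRP1 was at 0.63 ± 0.101 FPKM in shHMGA1 and 1.43 ± 0.149 in shNC, and reached the filter of 1 FPKM only through shNC. Its difference ran from -1.07 to -0.19 over the 16 alternatives, so its call and its place among the 12 carry that limit. The other 4 that rose, named after their values were seen, were SEMA4C (0.44), ROBO3 (0.35), PLXNB1 (0.34) and PLXNB2 (0.16). The 12 were 7 without shHMGA1 replicate 2, 4 without shNC replicate 2 and 5 on leaving out replicate 3 of shHMGA1 or replicate 1 or 3 of shNC, and the 5 were 2 or 3 without shHMGA1 replicate 3 or any shNC library. The difference between these lists and the 10 genes was not tested.

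**Figure D4:**
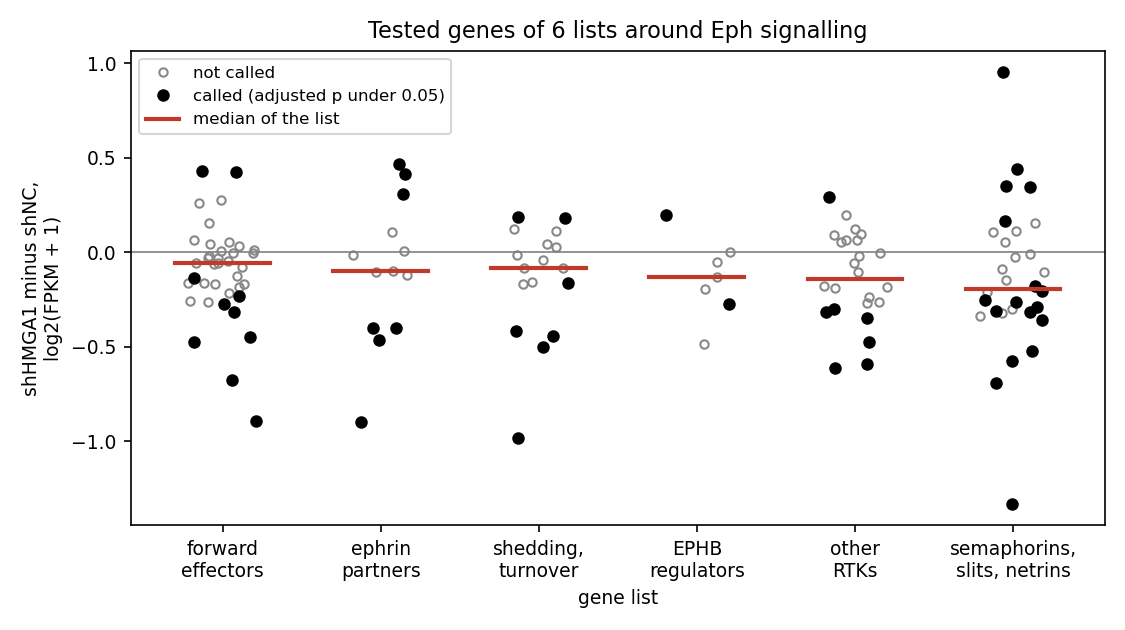
Difference between shHMGA1 and shNC on the log2(FPKM + 1) scale for the tested genes of 6 lists. Filled points were called (adjusted p under 0.05), open points were not, and red lines are the list medians, which run from -0.06 for forward effectors to -0.19 for the other guidance systems.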

How the data were processed

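Per the labels' protocols, poly-A RNA was sequenced on an MGI instrument. The submitters' processing notes name hg38, with aligner, counter, strand setting and annotation not given in the sources used here. The authors' deposited table holds FPKM per library, rounded to 2 decimals, and, per the file headers, the authors' signal for each group, on the scale of normalized counts, with a log2 fold change and a p-value. No per-library read counts were used, so depth is known only from those levels, and only if that reading holds. For the 10 genes they ran from 321 (EPHA4) to 4075 (EPHB4) in shHMGA1 and from 355 (EFNA4) to 5684 (EPHA2) in shNC.

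Here log2(FPKM + 1) was fitted with limma 3.58.1 in R 4.3.3 (two-sided, eBayes with trend) for the 14304 genes averaging 1 FPKM or more, and adjusted over all of them by Benjamini-Hochberg; differences are shHMGA1 minus shNC. Groups came from the titles. Replicate numbers did not pair the libraries (correlations of same-numbered deviations 0.02, -0.04 and 0.04). Permutation used scipy 1.17.1. On simulated data for this comparison (14077 genes, 200 changed), 95% of changes of 1 and 67% of changes of 0.5 on the log2 scale were recovered, with 12 unchanged genes called. The changed genes were drawn only from those averaging at least 5 FPKM, and they were a far smaller share than the 28.4% called in the data. The rates therefore need not hold for the data or for genes of lower level.

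The 10 genes and all lists were chosen with earlier results of these data known. Named were the 10 genes, their relatives, HMGA1, up to 4 called genes per list without overlap between groups, by size of difference, and the 3 genes most correlated with the extreme members, of which 1 is not reported here. The 17 alternatives were other pseudocounts, filters, scalings and variance settings, the replicate number as a block, and each library left out.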

Additional observations from a re-analysis of the deposited data

How the results depend on the processing

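All 10 genes kept the sign of their log2 difference under the 17 alternatives except EPHB2 (-0.04 to 0.02) and EFNA1 (-0.08 to 0.09), which lie near 0. EPHA2 ran from -1.22 to -1.06. Of the 10, the 3 past the threshold as lower were 5 at a mean of at least 5 FPKM, where EPHA4 was not tested, and 1 to 4 with any library left out. The 2 past it as higher were 0 without a filter or with quantile scaling, 1 without the trend, and 0 to 2 with any library left out. With the replicate number as a block the 2 were 1 and the 3 were 3, and over all genes 1913 and 1495 were called higher and lower. The block ended the call of TCF7L2 (adjusted p = 0.0537) and took the 2 higher shedding genes to 0, the 12 lower guidance genes to 8 and the 5 higher ones to 4. Over all genes, the 2307 called higher were 1478 without a filter, and 1094 to 2621 with any library left out, and the 1758 called lower were 947 to 1962. Without a filter ROCK2, CBL, ADAM10, PTPRJ and CTNNB1 were not called (adjusted p from 0.0525 to 0.0655), the lower counts were 4 for forward effectors, 2 for shedding and 6 for guidance, and the higher counts were 1, 0 and 3, with 0 for other receptor tyrosine kinases. TCF7L2 also lost its call under quantile scaling (0.0809) and, as did the higher receptor tyrosine kinase, under scaling without mitochondrially encoded genes (0.0564 for TCF7L2). HMGA1 stayed lower and called throughout (-0.75 to -0.61 with any library left out). Among the 10 genes, EPHA4 and EPHB3 had the largest SE (0.21 and 0.16).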

Other observations

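Over the 6 libraries, genes whose log2(FPKM + 1) closely followed EPHA2 included XYLT1, a xylosyltransferase of proteoglycan synthesis, and the EGFR ligand BTC. Pearson's r was at least 0.999 for each, which mostly reflects the gap between the groups that they share with EPHA2. XYLT1 was at 1.67 ± 0.0751 FPKM in shHMGA1 and 2.67 ± 0.06 in shNC, and BTC at 2.91 ± 0.05 and 3.4 ± 0.0289 (SD, n = 3 each). In all, 114 genes had r over 0.99 with EPHA2 and 7 with EFNA4. Closest to EFNA4 were BEX3 (145 ± 10.3 FPKM in shHMGA1 and 122 ± 3.48 in shNC), CHCHD4, of mitochondrial protein import (18.8 ± 1.56 and 15.4 ± 0.732), and KMT2B, a histone methyltransferase (7.43 ± 0.943 and 5.59 ± 0.386). With 6 libraries in 2 groups, such values describe likeness and carry no test.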
